A study of Drosophila melanogaster with 2 samples.

Results

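The Hippo pathway limits organ size in Drosophila melanogaster, and 10 of its genes were examined here for binding by the product of CG34376 tagged with green fluorescent protein (GFP). The genes were taken by name: hpo, wts, sav, mats, yki, sd, ex, Mer, kibra and ft, 10 of 13945 protein-coding genes. All 10 were found in Ensembl release 115, with the same ends in the RefSeq annotation. For each gene, every peak summit in the gene body and 5 kb on each side was collected. These windows held 24 of the 7025 peaks that passed the authors' reproducibility threshold, and 105 of the 30000 candidate peaks of the pooled replicates.

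Chromatin immunoprecipitation followed by sequencing (ChIP-seq) was done on whole embryos of both sexes, 0 to 24 h old, from a stable transgenic line that makes CG34376 with GFP at its C-terminal end. There were 2 libraries, biological replicates 2 and 3, which form 1 group, so no group could be tested against another and every value below is a description. Both libraries carried the transgene, and no library without it was analysed here. The labels do not say which promoter drives the transgene, and a whole embryo mixes all of its cell types. A free-text label line calls the libraries input controls, whereas the assay title and antibody fields describe immunoprecipitates, and they are treated as the latter.

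In the fly, the kinase Hippo (hpo) with its scaffold Salvador (sav) activates the kinase Warts (wts), which acts with its adaptor Mats (mats). Warts phosphorylates the coactivator Yorkie (yki) and keeps it out of the nucleus. Free Yorkie enters the nucleus and pairs with the DNA-binding protein Scalloped (sd) to switch on growth and survival genes. Upstream, the FERM-domain proteins Expanded (ex) and Merlin (Mer), the scaffold Kibra (kibra) and the giant cadherin Fat (ft) feed into the kinases. The genes ex, Mer and kibra are themselves known targets of Yorkie, which closes a feedback loop.

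Thresholded summits lay no more than 500 bp from a transcription start at 7 of the 10 genes, called bound below: hpo, mats, yki, sd, ex, Mer and kibra. Over all protein-coding genes this share was 30.1%. The genes without one were wts, sav and ft. Where a summit counted only for the gene with the nearest start, 5 were bound (23.7% of protein-coding genes), without mats and yki. Of these 10 genes only Mer was bound by the 1000 strongest peaks, as were 5.28% of protein-coding genes. The same 7 genes were found with the 7025 highest candidates of replicate 2 alone and with those of replicate 3 alone (7 ± 0, SD, n = 2). All 10 genes had at least 1 candidate of the pooled list within 500 bp of a start, as did 60.4% of protein-coding genes, and 49.7% of the protein-coding genes with such a candidate also had a thresholded summit there. Of the 8 members with a single annotated start, 5 were bound, against 23% of the 10246 protein-coding genes with a single start.

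Of the 24 thresholded summits, 10 lay at a start of the member itself and 9 at the start of another gene in the window. The remaining summits were 3 in introns, 1 between genes and 1 in a 3' UTR. In all, 19 of 24 (79.2%) were within 500 bp of any start, against 61.2% of all thresholded summits. The comparison is unlike, because each member window holds a start by definition, whereas the 61.2% covers summits anywhere. Counting the 7025 highest candidates of each replicate, the share was 75.5% ± 2.01 (SD, n = 2). Every member window held at least 1 thresholded summit, as did 60.2% of protein-coding genes, but member windows were longer, with a median of 20399.5 bp against 12166 bp. Per 10 kb of window, members had a median of 0.994 thresholded summits against 0.765 for protein-coding genes, and 4.48 pooled candidates against 3.12.

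**Figure D1:**
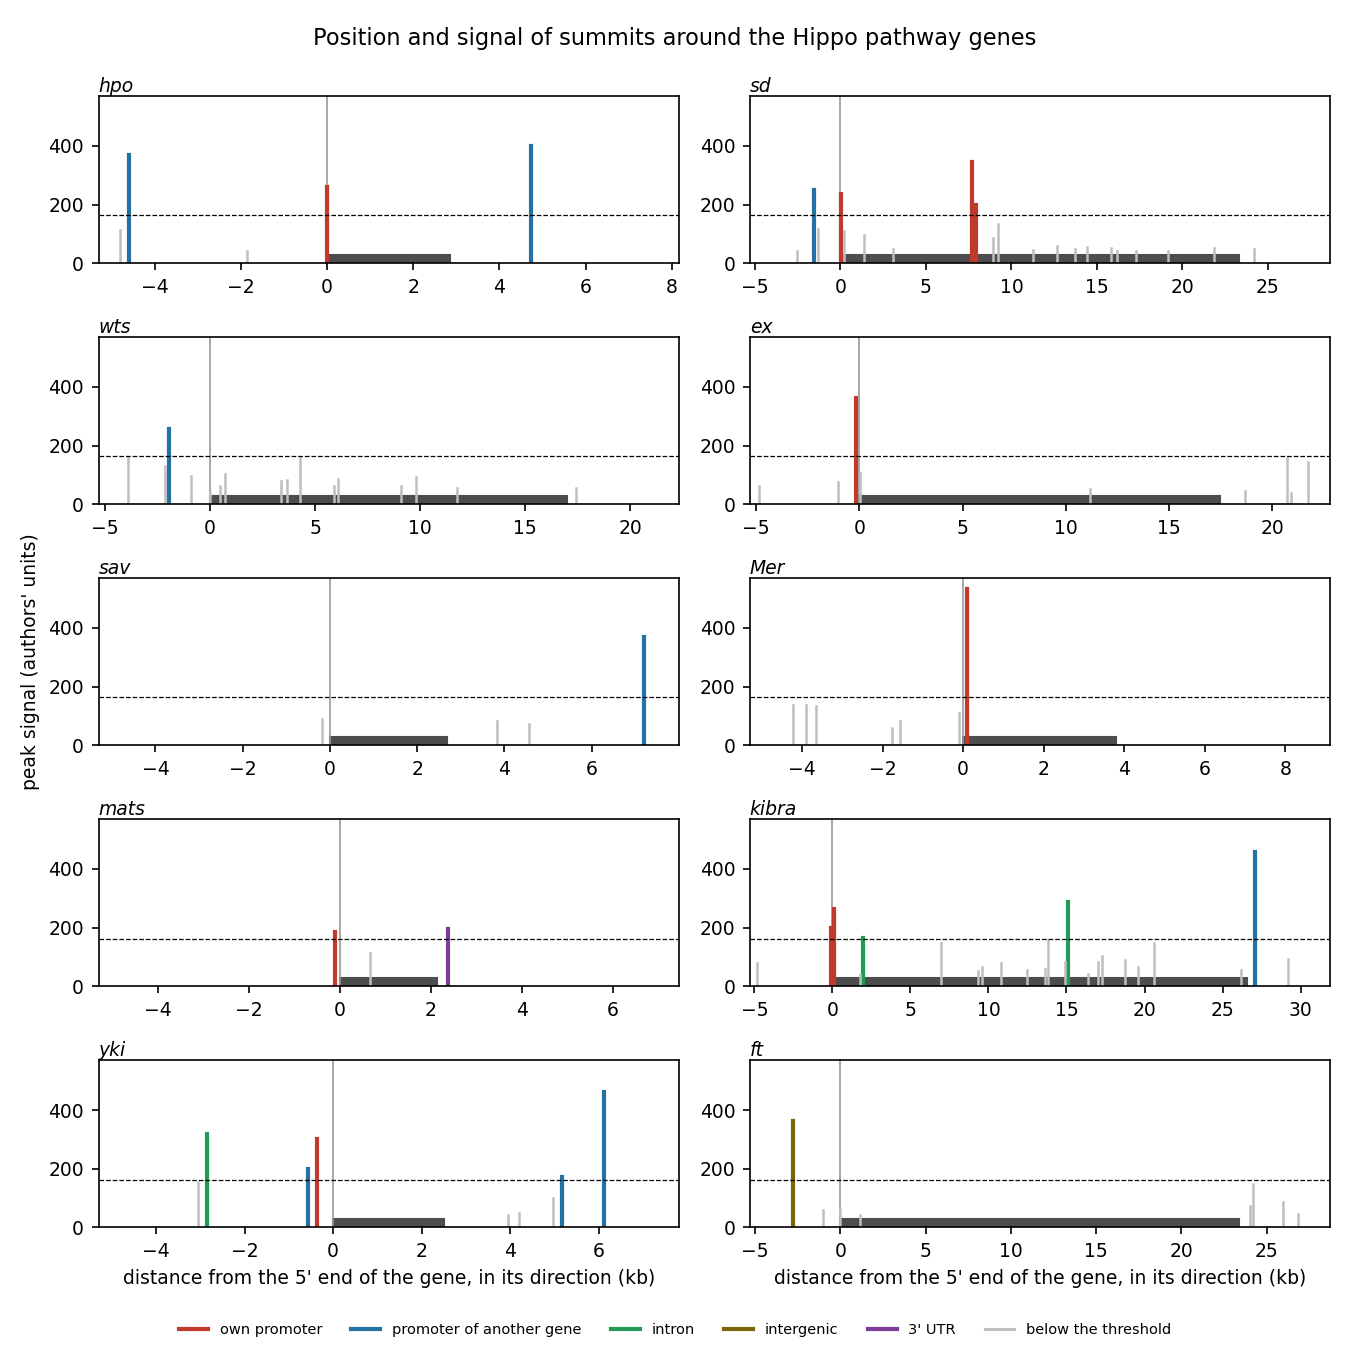
Each panel plots the summits around 1 gene, with distance from its 5' end in its own direction (kb) across and the peak signal of the pooled list (authors' units) upwards. Dark bars are gene bodies, coloured lines thresholded summits and grey lines candidates below the threshold (dashed line). Mer and ex had a single thresholded summit, at their own start, whereas those of wts, sav and ft lay away from theirs.

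Signals were moderate. The peak signal, a value per peak in the authors' own units, ranged from 163 to 534 over the 24 summits with a median of 276, against a range of 163 to 3316 and a median of 252 over all thresholded peaks. The best rank was 675 of 7025, and 15 of 24 summits were above the median of the list. The 9 summits at starts of other genes ranged from 171 to 463, and the 10 at the members' own starts from 185 to 534. These values over 24 summits therefore do not describe member promoters alone. For the 7 bound members the median of the highest promoter signal was 299.6, against 268 for all bound protein-coding genes. The order from high to low was Mer, ex, sd, yki, kibra, hpo and mats. Mer exceeded 87.3% of bound protein-coding genes and mats 15.1%. Both replicates are pooled in this value and only 2 libraries exist, so neighbours in the order are not separated, nor are the genes between its ends. Mer was first and mats last in each replicate. In replicate 2, yki (rank 3415) was below both kibra (2444) and hpo (2498). In replicate 3, kibra (5247) was below hpo (4311), and sd (1669) was above ex (1724).

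**Figure D2:**
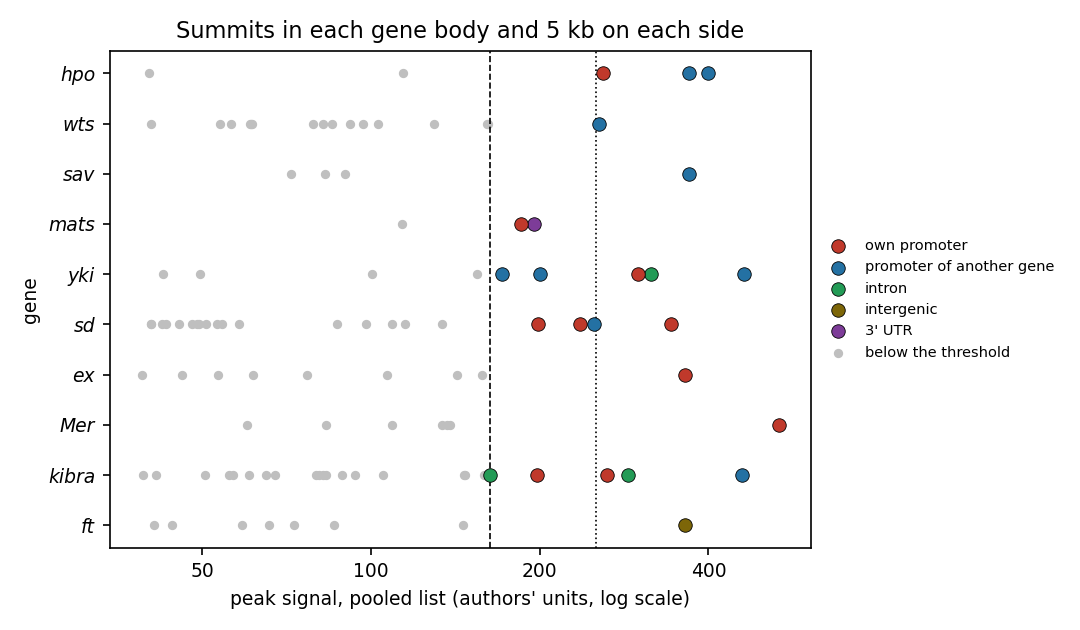
Points are summits of the pooled list in each gene body and 5 kb on each side, with the peak signal (authors' units, log scale) across and 1 row per gene. Colour gives the place of a thresholded summit, grey points lie below the threshold (dashed line), and the dotted line is the median of the thresholded list, 252. The highest point is the Mer promoter, 534.

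Among the upstream regulators, Mer had the strongest peak of any member. Mer (FBgn0086384, X, 19689697 to 19693500, minus strand) encodes Merlin, a cortical FERM protein and the fly relative of the human NF2 tumour suppressor. Its only thresholded summit, at 19693414, lay 86 bp downstream of the single start, in the first intron, in a peak from 19693256 to 19693543. The pooled signal was 534 (rank 675). The signal was 303 in replicate 2 (rank 608) and 233 in replicate 3 (rank 791), in units that differ between lists, so both libraries placed the site high. A candidate 113 bp upstream of the start stayed below the threshold with a signal of 109 and was found in replicate 2 but not in replicate 3.

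Expanded was bound just upstream of its start. The ex gene (FBgn0004583, 2L, 431227 to 448701, plus strand) encodes a FERM-domain scaffold that also holds Yorkie in the cytoplasm. Its summit at 431073 lay 154 bp upstream, in a narrow peak from 430972 to 431153, with a pooled signal of 363 (rank 1669). It had a signal of 187 in replicate 2 (rank 1895) and 168 in replicate 3 (rank 1724), so the ranks were close. No other summit in the 27475 bp window passed the threshold, and the 8 further candidates ranged from 38.9 to 158.

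Kibra, whose WW-domain protein binds Merlin and Expanded, had the most summits along with yki, 5 each. The gene (FBgn0262127, 3R, 14697689 to 14724261, minus strand) had 2 summits at its start. The stronger, at 14724165, lay 96 bp downstream with a signal of 264 (rank 3223) and the weaker, at 14724380, 119 bp upstream with 198 (rank 5233). These peaks overlap, and in both replicates 1 candidate covered both summits, with rank 2444 in replicate 2 (signal 165) and 5247 in replicate 3 (signal 95.3). The pair is therefore not 2 separate observations of binding. A first intronic summit at 14709152, 15109 bp into the gene, had a signal of 288 (rank 2726), with rank 1845 in replicate 2 and 5153 in replicate 3. A second, at 14722286 and 1975 bp into the gene, had 163 (rank 7010), just inside the threshold, with rank 5363 in replicate 2 and 6362 in replicate 3. The strongest summit in the window, at 14697211 with a signal of 459 (rank 984), lay beyond the 3' end of kibra and 81 bp downstream of a start of Meltrin, which encodes an ADAM-family metalloprotease.

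Fat was the upstream regulator without a bound promoter. The ft gene (FBgn0001075, 2L, 4198404 to 4221796, minus strand) had 1 thresholded summit, at 4224589, between genes and 2793 bp upstream of its start. It was 2391 bp downstream of the nearest start, that of CG3702, and past the 3' end of that gene. The peak, from 4224530 to 4224667, reached into an annotated exon beyond 4224649. The signal was 364 (rank 1662), with 219.99 in replicate 2 (rank 1307) and 132 in replicate 3 (rank 2918). At the ft start itself, a candidate 8 bp upstream had a signal of only 65.8 (rank 18415 of the pool), with rank 17545 in replicate 2 and 21740 in replicate 3. The gene nearest to a distal summit is not thereby shown to respond to it.

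The sequences at these sites are shown because they differ in the letters they hold. Each is the part outside annotated exons of the 201 bases centred on the summit, read 5' to 3' on the strand of the gene from the RefSeq copy of Release 6 (build dm6). Capitals mark letters that match a searched motif on either strand. The GATA site was spelled GATA with A or T before it and A or G after it, and the longer form GATAAG, which can overlap it, was counted apart. CGATA was searched alone and within the DNA replication-related element, or DRE, spelled TATCGATA. The repeat GAGAG is the core of sites for GAGA factor, and GGAATG is the core bound by TEAD proteins. ACACTG was searched alone, the core of the core-promoter element Motif 1 was spelled GGTCACACT, and CAGGTA is the site of the early activator Zelda. The sites are Mer chrX:19693314-19693435 (minus), ex chr2L:430973-431173 (plus), the kibra start chr3R:14724280-14724480 (minus), the kibra intron chr3R:14709052-14709252 (minus) and upstream of ft chr2L:4224489-4224649 (minus).
Mer intron 1: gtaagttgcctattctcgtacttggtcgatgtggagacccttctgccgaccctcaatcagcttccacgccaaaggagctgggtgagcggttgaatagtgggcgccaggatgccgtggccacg
ex upstream: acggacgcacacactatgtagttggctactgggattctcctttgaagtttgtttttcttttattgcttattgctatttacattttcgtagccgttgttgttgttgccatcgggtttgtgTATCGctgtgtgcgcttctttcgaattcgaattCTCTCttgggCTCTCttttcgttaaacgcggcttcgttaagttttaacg
kibra upstream: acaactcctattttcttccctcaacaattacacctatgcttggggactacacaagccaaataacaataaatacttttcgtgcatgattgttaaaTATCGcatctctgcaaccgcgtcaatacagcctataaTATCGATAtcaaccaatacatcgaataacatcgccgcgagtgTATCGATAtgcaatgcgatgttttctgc
kibra intron: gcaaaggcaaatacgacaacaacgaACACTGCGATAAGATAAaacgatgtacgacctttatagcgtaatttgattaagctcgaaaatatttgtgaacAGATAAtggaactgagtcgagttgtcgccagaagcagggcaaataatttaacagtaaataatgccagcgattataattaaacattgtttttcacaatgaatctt
ft upstream: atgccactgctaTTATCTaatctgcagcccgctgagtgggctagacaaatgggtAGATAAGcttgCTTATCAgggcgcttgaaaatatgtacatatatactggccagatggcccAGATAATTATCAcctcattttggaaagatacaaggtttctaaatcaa
The kibra upstream sequence held 2 DRE matches and 5 CGATA matches, 4 of them inside the DRE matches. The kibra intron held 2 GATA sites, the nearest 1 bp from the summit. The ft sequence held 5 GATA sites, the most of any member summit, with the nearest 4 bp from the summit. The ex sequence held 2 GAGAG matches and 1 CGATA match, and the printed Mer stretch matched none of the motifs. The rest of the Mer window, in exon 1 or beyond and not printed, held 1 CGATA match, 1 Motif 1 core and 1 ACACTG match. The Motif 1 core and the ACACTG match, 93 and 91 bp from the summit, overlap.

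The nuclear partner Scalloped, a TEAD-family DNA-binding protein, was bound at more than 1 of its promoters. The sd gene (FBgn0003345, X, 15804370 to 15827682, plus strand) has 7 annotated starts. The summit at 15804386 lay 16 bp downstream of the first start with a signal of 236 (rank 3930). It had 144 in replicate 2 (rank 3192) and 87.2 in replicate 3 (rank 6037). At internal starts, the summit at 15812090 lay 4 bp upstream with a signal of 344 (rank 1879), and that at 15812301 lay 26 bp upstream with 199 (rank 5192). In replicate 2 these had ranks 2169 and 5079 with separate candidates, whereas in replicate 3 a single candidate of rank 1669 (signal 171) covered both. The fourth summit of the window, at 15802832 with a signal of 249.8, lay 137 bp downstream of a start of PGRP-LE, a sensor of bacterial peptidoglycan. The 17 further candidates of the sd window stayed below the threshold, the highest of them at 134. The part upstream of the first start, chrX:15804286-15804369 on the plus strand, is shown because it held the only match among the 24 member summits to GGAATG. It also held 4 overlapping or neighbouring GAGAG matches.
sd first start: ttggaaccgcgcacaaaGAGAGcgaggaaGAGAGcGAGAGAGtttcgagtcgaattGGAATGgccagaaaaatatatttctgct

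In the core kinase cassette, mats was bound weakly and shared its site. Mats is a MOB-family adaptor that activates Warts, and its gene (FBgn0038965, 3R, 22421161 to 22423302, plus strand) lies head to head with Nop56, which encodes a core protein of small nucleolar ribonucleoproteins. The summit at 22421053 was 108 bp upstream of mats and 15 bp downstream of the Nop56 start. Its signal was 185 (rank 5820), the lowest best promoter signal of the 7 bound genes, with 91.1 in replicate 2 (rank 6773) and 91.3 in replicate 3 (rank 5636). A second summit, at 22423544, lay in the 3' UTR of the neighbour pinta with a signal of 195 (rank 5343). It ranked 4895 in replicate 2 but 7183 in replicate 3, just outside the top 7025. The stretch between the Nop56 and mats exons, chr3R:22421069-22421153 on the plus strand, is shown because it held 2 GATA sites, and a Motif 1 core lay 1 bp from the summit outside it.
mats upstream: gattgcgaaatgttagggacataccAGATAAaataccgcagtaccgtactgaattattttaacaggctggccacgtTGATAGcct

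Warts and Salvador had no thresholded summit of their own. The wts gene (FBgn0011739, 3R, 30789625 to 30806619, minus strand) encodes the LATS-family kinase that phosphorylates Yorkie. Its window held 16 pooled candidates, 5.93 per 10 kb, more than 82.8% of protein-coding genes. Only 1 passed the threshold, at 30808582, with a signal of 255 (rank 3422), and it lay 35 bp upstream of a start of cindr, an adaptor protein of the CIN85 family. Its rank was 6626 in replicate 2 and 1948 in replicate 3. Among the 24 thresholded summits of the member windows, this gap was exceeded only at the Gpat4 start. At the wts start, a candidate 2 bp upstream, also within 500 bp of dj-1beta, had a signal of 40.4 (rank 28476), with rank 15931 in replicate 2 and no candidate in replicate 3. A stronger one, 492 bp downstream of the start, had 60.9 (rank 19795), with rank 21967 in replicate 2 and 13887 in replicate 3. An intronic candidate at 30802318, 4301 bp into wts, had a signal of 161 (rank 7111), just outside the threshold, which lies between signals of 162.911 and 162.912. It ranked 10616 in replicate 2 and 4918 in replicate 3.

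The sav gene (FBgn0053193, 3R, 23058609 to 23061304, minus strand) encodes the WW-domain scaffold that joins Hippo and Warts. The single thresholded summit of its window, at 23054108, lay 26 bp upstream of a start of p53, which encodes a tumour suppressor transcription factor. Its signal was 370 (rank 1599), with 186 in replicate 2 (rank 1921) and 186 in replicate 3 (rank 1396). The window of this summit held 2 DRE matches. The only candidate near the sav start, 181 bp upstream and 8 bp from a start of Ublcp1, had a signal of 89.9 (rank 13740), with rank 15529 in replicate 2 and 14185 in replicate 3.

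The hpo promoter was bound, between stronger neighbours. The hpo gene (FBgn0261456, 2R, 19493996 to 19496856, minus strand) encodes the MST-family kinase at the head of the cassette and has a single start. Its summit at 19496858 lay 2 bp upstream with a signal of 259 (rank 3330). It had 163 in replicate 2 (rank 2498) and 107 in replicate 3 (rank 4311). On either side, the summit at 19492131 lay 44 bp downstream of a start of Rep, a Rab escort protein, also within 500 bp of Oseg6, with a signal of 399.9 (rank 1350). That at 19501458 lay 40 bp upstream of the start of CG16926 with 369.6 (rank 1605). Both neighbours outranked hpo in both replicates, with ranks 1396 and 1400 for the Rep site and 1988 and 1310 for the CG16926 site.

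Yorkie, the coactivator that Warts holds in check, shared its nearest peak with a neighbour. The yki gene (FBgn0034970, 2R, 24065975 to 24068485, minus strand) had a summit at 24068850, 365 bp upstream of its start and 93 bp downstream of a start of Gpat4, a glycerol-3-phosphate acyltransferase. The signal was 299.6 (rank 2487), with 139 in replicate 2 (rank 3415) and 161 in replicate 3 (rank 1875). A second summit, at 24069050 on the Gpat4 start, had a signal of 200.2. It ranked 11653 in replicate 2, whereas in replicate 3 the same candidate of rank 1875 covered both summits, so that its position as a separate peak rests on replicate 2 and the pool. Another, at 24071330 in an intron of Gpat4, had a signal of 317 (rank 2231). Downstream of yki, the start of RpL39, a protein of the cytosolic ribosome, carried the strongest summit of the window at 24062361 with a signal of 463 (rank 960), and Rap2l, a Ras-like GTPase gene, had one at 24063302 with 171. With 3.996 thresholded summits per 10 kb, the yki window was denser than those of 97.5% of protein-coding genes, but none of its 5 summits lay in the body of yki.

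Replicates placed the member summits alike. All 24 were covered by a candidate in each replicate, 22 were among the 7025 highest of replicate 2 and 23 of replicate 3. In both lists at once were 21 (87.5%), against 80.4% of all thresholded summits. The threshold was set on these same libraries, so these shares are no independent check. The median ratio of the larger to the smaller rank was 1.49 for members and 1.42 for all thresholded summits found in both replicates. The largest ratio was 6.21, at the Gpat4 start near yki. Replicate 2 ranked 11 summits higher and replicate 3 ranked 13 higher.

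**Figure D3:**
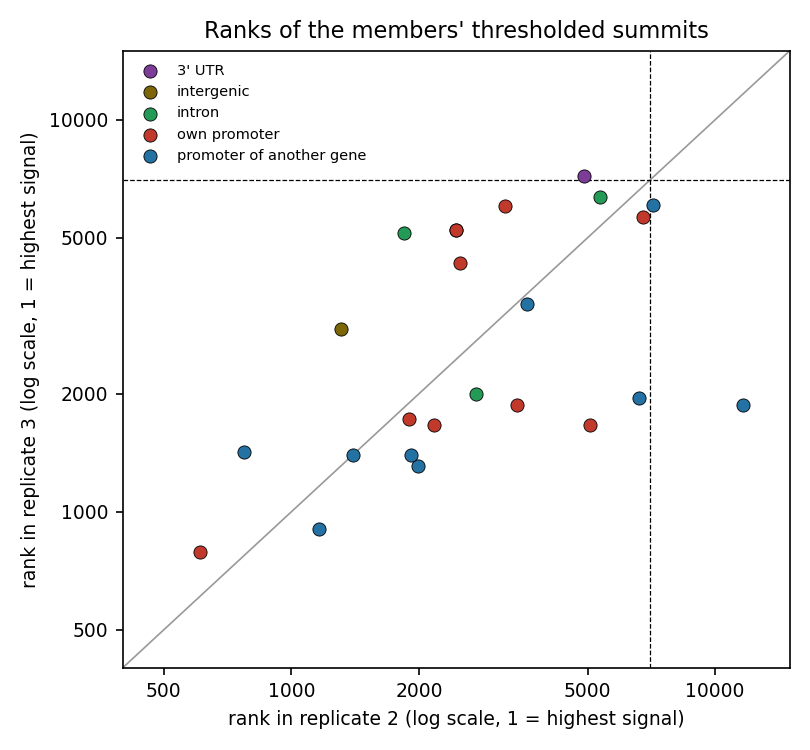
Points are the 24 thresholded summits of the member windows, with their rank in replicate 2 across and in replicate 3 upwards (log scales, rank 1 is the highest signal), coloured by place. The diagonal marks equal ranks and the dashed lines rank 7025. The Mer promoter has the lowest rank on both axes, 608 and 791, and points that share a candidate coincide in 1 or both ranks.

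Candidates below the threshold were 81 in the member windows, with signals from 38.9 to 161 and a median of 76.9, against 65.4 for all 22975 such candidates. Of these, 40 lay in introns, and 29 (35.8%) lay at a start, the same share as over all candidates below the threshold (35.8%). Both replicates had a candidate at 57 of them, 1 replicate at 22 and neither at 2. Counting all 105 candidates, the bodies of kibra, sd and wts held 19, 17 and 10, whereas those of hpo, sav and yki held 0.

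Around member summits, GATA sites, GATAAG and CGATA were about as frequent as around thresholded summits in general. Within 100 bp, 11 of 24 member summits had a GATA site, the core bound by GATA zinc finger factors. This compared with 47.7% of all thresholded summits and 32.8% of flanking windows centred 600 bp away. Of the members' own flanks, 17 of 48 (35.4%) had a GATA site. Of the 10 summits at the members' own starts, 3 had one and 0 had GATAAG, against 40.6% and 19.9% of all promoter summits. GATAAG was at 6 of the 24 (25.4% of all), CGATA at 10 (38% of all) and GAGAG at 6 (30.6% of all). The DRE was at 2 (3.32% of all), the Motif 1 core at 2 (1.78% of all), ACACTG at 4 (14% of all), and CAGGTA at 2 (3.93% of all). GGAATG was at 1 of 24, against 6.89% of all summits and 9.17% of flanks, and in 7 of 48 of the members' own flanks (14.6%). With so few summits, 1 summit more or less moves a share by several percent, and a match of letters is not a binding site.

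The wider pathway was described by 69 further genes in 6 roles, all found in the annotation. Of these, 33 (47.8%) were bound at a start, against 30.1% of protein-coding genes, with 34.5 ± 2.12 in the separate replicates (SD, n = 2). Where a summit counted only for the gene with the nearest start, 24 of 69 were bound, against 23.7% of protein-coding genes. Numbers of starts per gene were not matched. The median promoter signal of the 33 was 295. In the gene body and 5 kb on each side, 58 of 69 (84.1%) had a thresholded summit, against 60.2% of protein-coding genes, with window lengths not matched. Genes of the Fat and Dachsous branch had the lowest count, 1 of 8, and genes of the STRIPAK phosphatase complex, which restrains Hippo, 4 of 6.

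**Figure D4:**
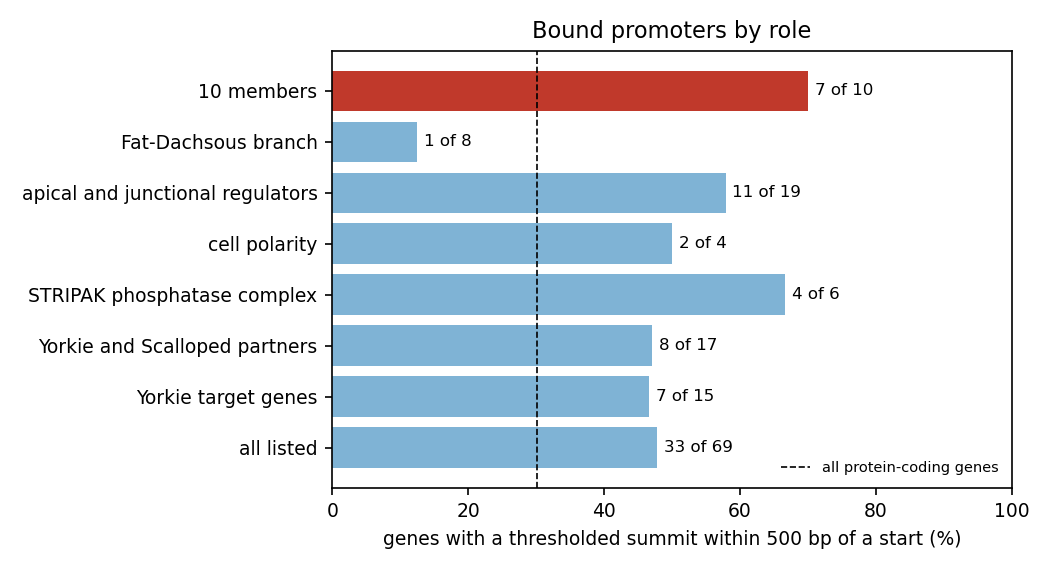
Bars give the share of genes (%) bound at a start, for the 10 members and for each role of the wider pathway, with counts beside them. The dashed line is the share over all protein-coding genes, 30.1%. The Fat and Dachsous branch is the only bar below it.

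In the Fat and Dachsous branch the bound gene was app, a palmitoyltransferase that acts below Fat, with a signal of 478 (rank 885) 214 bp upstream of a start and also within 500 bp of CG32100. The cadherin ligand ds and the Golgi kinase fj had 0 thresholded and 0 pooled summits in their windows, as did 14.3% of protein-coding genes, with window lengths not matched. The ds gene spans 75.0 kb, whereas the median window of protein-coding genes was 12166 bp, so 14.3% is not a like share for ds. Its window held 0 candidates in replicate 2 and 2 in replicate 3. Of the apical and junctional regulators 11 of 19 were bound, against 30.1% of protein-coding genes. The highest were kst, which encodes beta-heavy spectrin (644, rank 420), par-1, a polarity kinase (568, rank 570), and msn, a kinase that acts in parallel to Hippo on Warts (423, rank 1187). Beside the same 30.1%, 2 of 4 cell polarity genes were bound, scrib (557, rank 601) and aPKC (293, rank 2614), the latter also within 500 bp of ckn.

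In the STRIPAK complex the highest signal was at mts, the catalytic subunit of protein phosphatase 2A, with 712 (rank 321), 393 bp upstream of its start and also within 500 bp of a start of Rack1. Mob4 (193, shared with Rab2) and the scaffold Cka (188) were far lower. Of the partners of Yorkie and Scalloped 8 of 17 were bound, against 30.1% of protein-coding genes. The strongest was 14-3-3zeta, whose protein holds phosphorylated Yorkie in the cytoplasm, with a signal of 1133 (rank 77, and ranks 48 and 132 in replicates 2 and 3). Next came brm, the ATPase of a SWI/SNF chromatin remodeller, with 1046 (rank 102), also within 500 bp of Arl1, and Trl, which encodes GAGA factor, with 634 (rank 438), also within 500 bp of CG42507. Each of these 3 signals exceeded the highest promoter signal of the 10 members.

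Of the Yorkie target genes outside the 10 members, 7 of 15 were bound. Diap1, the inhibitor of apoptosis by which Yorkie promotes survival, had the highest signal, 703 (rank 332), 44 bp downstream of a start, with rank 237 in replicate 2 and 450 in replicate 3. The EGF receptor ligand gene spi followed with 490 (rank 832) and the growth regulator Myc with 403 (rank 1321), the latter also within 500 bp of lncRNA:CR44999. CycE, wg, Ser, upd1 and upd2 had 0 thresholded summits in their windows, 5 of 15 target genes, as did 39.8% of protein-coding genes, with window lengths not matched. The growth-promoting microRNA gene mir-ban had none within 500 bp of its annotated start but 6 in its window. Exactly 6 were found for 1.52% of protein-coding genes, a share that leaves out genes with more, with window lengths not matched. The 3 members that are also Yorkie targets, ex, Mer and kibra, were among the 7 bound members already given. The share over protein-coding genes was 30.1%.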

How the data were processed

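Per the deposited file listings, the authors called candidate peaks on build dm6 for replicate 2, replicate 3 and their pool against 1 control file, and derived the thresholded list by IDR, a test of reproducibility. Aligner and peak caller: not given in the sources used here. The deposited lists give, per line, a signal in units of the authors, comparable only within a list, a −log10 q value (unused) and a summit offset. The 7025 thresholded lines are the 7025 pooled lines of highest signal, and each counted as 1 peak. Read depth is unknown.

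Summits were placed on Ensembl 115 (BDGP6.54) without transposable elements, with 18164 genes and 23581 starts. Promoter (500 bp) took precedence over UTR, coding exon and intron. A replicate's value is that of its highest candidate covering the summit. Counts per replicate use its 7025 highest candidates. Motifs were counted within 100 bp, on both strands, in Python 3.11.15. Start assignment was checked on simulated positions.

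The members, role lists and motifs were chosen with earlier results of these data known, and no test was run. All members are named, with up to 3 genes of highest promoter signal per role and genes whose start lies near a described summit. The ds, fj, CycE, wg, Ser, upd1, upd2 and mir-ban values were chosen after they were seen. Alternatives varied distances, windows, threshold and replicate.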

Additional observations from a re-analysis of the deposited data

How the results depend on the processing

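The 7 bound members became 5 when only the nearest start counted, which drops mats and yki (23.7% of protein-coding genes). They became 6 within 200 bp (23.8%) and 1, Mer, among the 1000 strongest lines (5.28%). The 33 bound further pathway genes became 24 when only the nearest start counted (23.7%) and 27 within 200 bp (23.8%). With the 1000 strongest lines, the windows of 3 members and 3 summits were left, with a median signal of 463, 1 GATA site and 100% at promoters. These summits lay at the starts of Mer, RpL39 in the yki window and Meltrin in the kibra window. Of the further pathway genes 11 were then bound, against 5.28% of protein-coding genes. With the 3512 lines of higher signal there were 15 summits, a median of 363 and 6 GATA sites. Of the further pathway genes 20 were then bound, against 16.6% of protein-coding genes. With no flank there were 3 members, 7 summits, 71.4% at promoters and 3 GATA sites. With 10 kb there were 41 summits, 68.3% at promoters and 18 GATA sites. With 2 kb, 83.3% were at promoters, and within 200 bp 75%. Within 50 bp, 7 summits had a GATA site. Without 1 replicate, promoter shares ran from 74.1% to 76.9% and median signals from 116 to 144, in units of the single replicate's list. The 1000 or 3512 lines and the other flanks keep fewer or more lines, and the cause of the changes was not tested. Overlapping intervals merged gave 22 regions. No paired analysis was possible because there is 1 group. Unknown depth limits what absent peaks show.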
